A study of Mus musculus with 20 samples.

Results

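The genes described here are 61 amino acid transporter genes, out of 21631 protein-coding genes of the mouse assembly GRCm38.p6 on chromosomes 1 to 19 and X. They were chosen by symbol: Slc1a, Slc6a, Slc7a, Slc36a, Slc38a or Slc43a followed by digits alone, plus Slc3a1 and Slc3a2. Slc6a20a, Slc6a20b and Slc7a6os carry letters after the digits and fell outside. Open chromatin was profiled by ATAC-seq, in which a transposase inserts adapters into accessible DNA, in C2C12 cells, an established mouse myoblast line that forms muscle cells when induced to differentiate. Cells were wild type (WT) or lacked Setd2 (KO), the gene of the methyltransferase that trimethylates histone H3 at lysine 36. The 10 groups of 2 libraries are each genotype at D0, and each genotype on D1 and on D5 with either control medium (CTL) or restricted methionine (MR). The WT libraries are replicates 1 and 2. The KO libraries are 1 from line 1 and 1 from line 2 in each group, so that the same 2 lines recur in every KO group. The labels do not say whether the WT replicates were separate cultures, and p-values then measure only the spread between these libraries.

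Amino acid transporters move amino acids across the plasma membrane or out of lysosomes. Cells that run short of an amino acid raise the translation of the transcription factor Atf4, which binds C/EBP-ATF response elements near many transporter genes. Methionine, the amino acid restricted here, enters mainly through exchangers built from the heavy chain Slc3a2 and a light chain such as Slc7a5, and through sodium-coupled carriers of the Slc38 family. Not all genes picked by symbol carry amino acids: Slc6a2, Slc6a3 and Slc6a4 are monoamine transporters, Slc6a8 carries creatine, and Slc43a3 is known as a purine nucleobase carrier.

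The C/EBP-ATF element was searched as TGATGNAAN on both strands in promoter windows from RefSeq (GRCm38.p6), each from 250 bases before to 50 bases after a start site. Windows were matched for 43 of the 61 genes, 64 windows in all. The motif was in 5 of these 64 windows, belonging to 4 genes, and in 3.95% of all 32851 promoter windows. Windows of Slc7a7 with lower ends at chr14:54417653 and chr14:54417895 overlap and share a match, at -243 and -1 from their start sites. That match is counted in both windows. Those of Slc7a11, Slc1a4 and Slc7a7 are shown because they hold the motif and differed in accessibility: a peak overlapped the first in 4 of 18 libraries, the second in 18 of 18, and the third in 0 of 18. Capitals mark the matches, and all 3 windows lie on the minus strand, at chr3:50443564-50443863, chr11:20332664-20332963 and chr14:54417895-54418194.
Slc7a11: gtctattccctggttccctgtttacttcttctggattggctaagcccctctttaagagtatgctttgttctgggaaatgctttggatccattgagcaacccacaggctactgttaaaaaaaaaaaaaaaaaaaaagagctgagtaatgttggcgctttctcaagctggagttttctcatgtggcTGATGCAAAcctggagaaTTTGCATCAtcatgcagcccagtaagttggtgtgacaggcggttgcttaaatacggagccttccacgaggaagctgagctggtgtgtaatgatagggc
Slc1a4: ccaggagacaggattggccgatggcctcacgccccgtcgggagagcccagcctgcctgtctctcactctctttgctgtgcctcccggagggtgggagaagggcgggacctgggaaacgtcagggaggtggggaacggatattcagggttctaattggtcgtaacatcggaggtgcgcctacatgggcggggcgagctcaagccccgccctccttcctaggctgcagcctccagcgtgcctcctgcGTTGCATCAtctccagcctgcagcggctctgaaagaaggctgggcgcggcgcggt
Slc7a7: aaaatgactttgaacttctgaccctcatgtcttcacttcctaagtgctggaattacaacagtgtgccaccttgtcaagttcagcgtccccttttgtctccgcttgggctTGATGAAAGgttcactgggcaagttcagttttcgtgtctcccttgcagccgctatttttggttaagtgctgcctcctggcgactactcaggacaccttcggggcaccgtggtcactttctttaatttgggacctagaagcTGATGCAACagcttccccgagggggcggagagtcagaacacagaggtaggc
The Slc7a11 window holds 2 matches on opposite strands, with first bases at -66 and -48 relative to the start site. The Slc1a4 match begins at -5. The Slc7a7 window holds matches at -141 and -1. A match of letters is a description and not evidence of binding. Among the 43 genes with a promoter window, 5 (11.6%) had a peak over it in all 18 libraries, 12 (27.9%) in some and 26 (60.5%) in none, against 16.6%, 24.0% and 59.4% of 27025 genes with a window.

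The deposited lists held 20847 to 69881 peaks in 18 libraries. Those of KO line 1 at D5 held 644 peaks in CTL and 1881 in MR, and these 2 libraries stand apart. They were left out of the tests and of every statement on 18 libraries, so KO at D5 rests on line 2 alone. Read totals were not used here. The myoblast markers Myod1, Cdh15 and Des had a peak within 10 kb in all 18 libraries and Myf5 in 12. Of the markers of other cell types, the leukocyte marker Ptprc and the epithelial marker Epcam were called in none, while Cdh1, Pecam1 and Sox10 were called in all 18. The targeted gene Setd2 had a peak in 8 of 8 KO and 10 of 10 WT libraries, which does not test its deletion.

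A transporter gene was counted as called in a library when at least 1 peak overlapped its span or the 10 kb on either side. By this rule 21 of the 61 genes (34.4%) were called in all 18 libraries, 32 in some and 8 in none, against 44.3%, 33.2% and 22.6% of all protein-coding genes. For 34 of the 61 genes the window also overlaps another protein-coding gene, so a peak there need not belong to the transporter gene. Among the genes with no peak were Slc6a14, a carrier of neutral and cationic amino acids, the cationic amino acid transporter Slc7a3, and Slc7a9, a light chain of the cystine carrier of kidney. The 21 genes called throughout included Slc3a2, Slc7a5, the cationic amino acid transporters Slc7a1 and Slc7a2, the neutral amino acid exchanger Slc1a4, the glutamate transporter Slc1a3, and Slc38a1, Slc38a2, Slc38a6, Slc38a9 and Slc38a10. They also included genes best known from the nervous system, such as the glycine transporter Slc6a5 and the proline transporter Slc6a7. By family, 3 of 7 Slc1 genes, 5 of 19 Slc6 genes, 5 of 15 Slc7 genes, 5 of 11 Slc38 genes, 2 of 3 Slc43 genes, 1 of 2 Slc3 genes and 0 of 4 Slc36 genes were called in all 18. The 299 regions near these genes, after peaks of all lists had been merged, numbered 0 to 18 per gene with a median of 4. A peak was present in all 18 libraries for 9.70% of them and for 12.9% of the 72708 regions near any protein-coding gene.

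**Figure D1:**
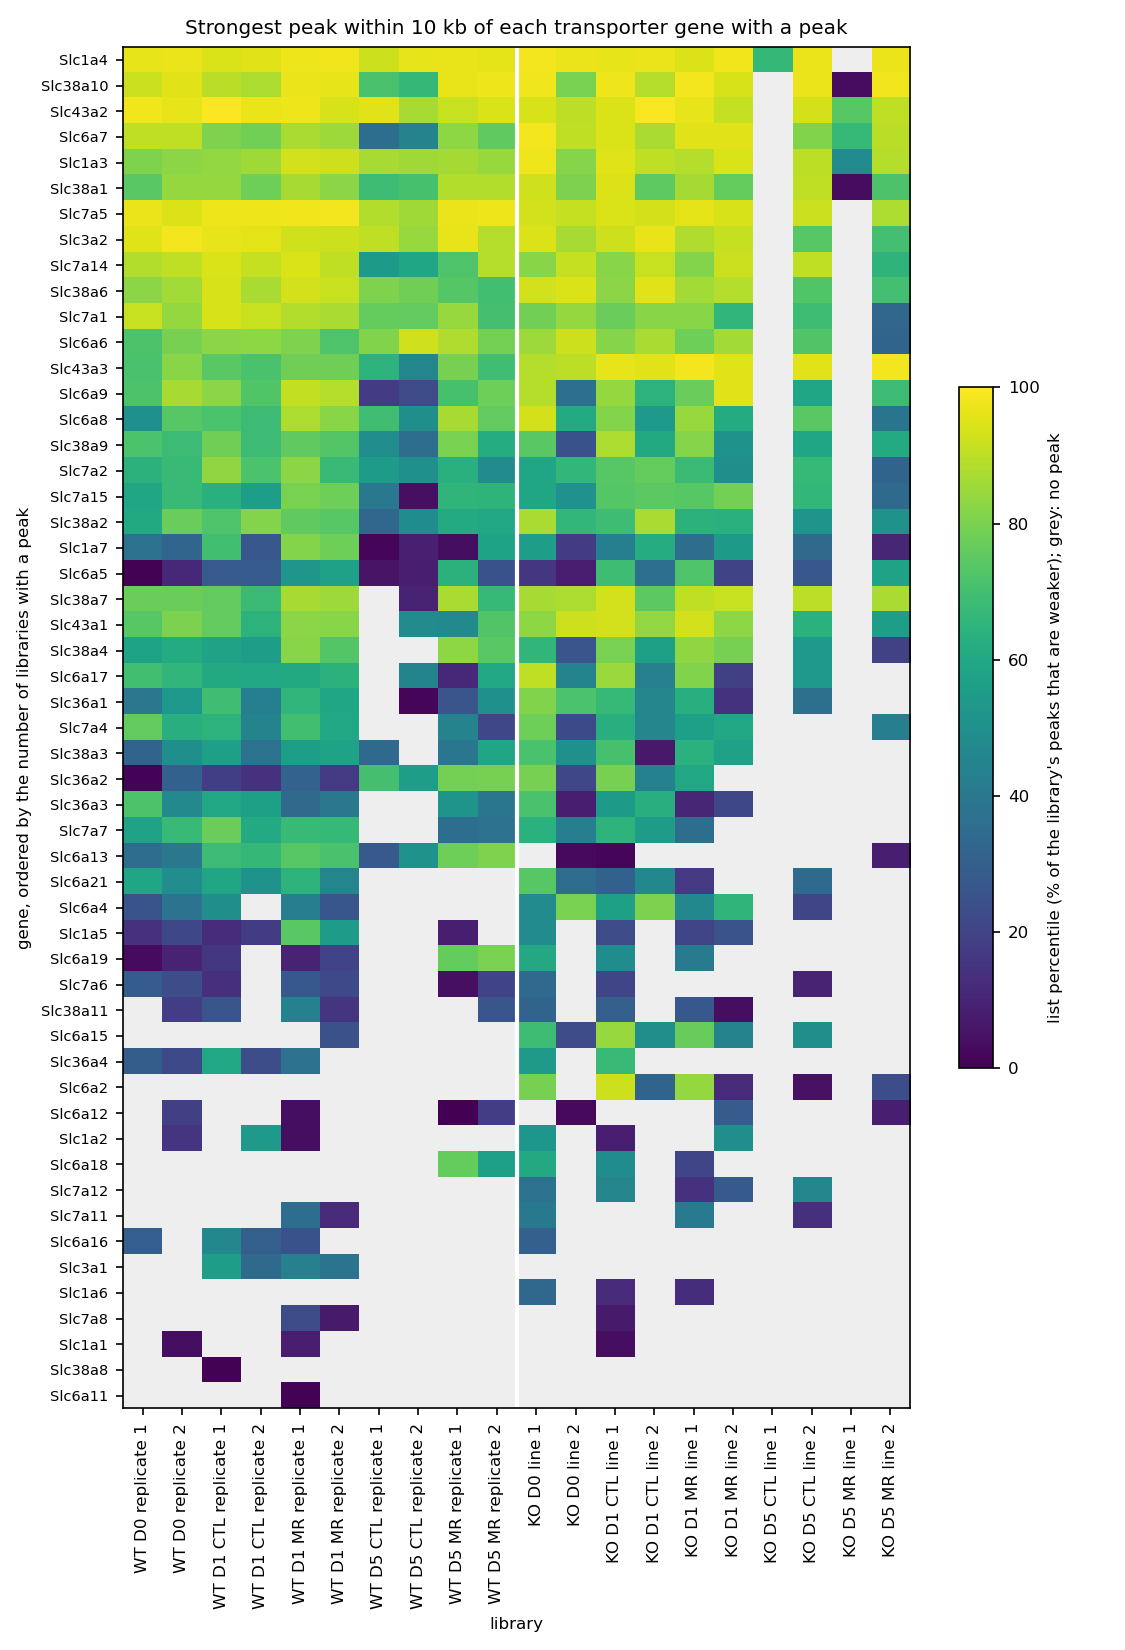
Strongest peak within 10 kb of each transporter gene called in at least 1 library (rows) in each of the 20 libraries (columns, WT left and KO right of the white line). Colour is the list percentile, the percent of that library's peaks that are weaker by −log10 p, and grey means no peak. The upper 21 rows are filled in all 18 libraries used in the tests, and rows further down have more grey cells. Genes with no peak in any library are not drawn.

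Where in its own list a gene's strongest peak stood was described by the list percentile, the percent of that library's peaks with a lower −log10 p. Among the 21 genes called throughout, Slc1a4 stood highest, with a median of 96.7 and a range of 92.5 to 98.1 over 18 libraries. Slc38a10, a relative of the system A carriers, had a median of 96.0 and Slc7a5 one of 94.5. Slc6a5, a gene of inhibitory neurons, stood lowest with a median of 28.0 and a range of 0.736 to 72.5. The widely expressed methionine carrier Slc38a2 had a median of 65.1. List percentiles depend on list length, so groups were compared by the gene rank: the percentile of a gene's strongest peak among the genes called in every library of that comparison.

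The share of transporter genes called moved with list length, as it did for all genes. At the short end, 39.3% and 44.3% were called in WT D5 CTL, with 22465 and 20847 peaks, against 54.6% and 53.0% of all genes. At the long end, 77.05% were called in WT D1 MR replicate 1, with 69881 peaks, against 72.9% of all genes. With each list limited to its 20000 strongest peaks, the share lay between 36.1% and 47.5% in the 18 libraries, against 48.6% to 54.3% of all genes.

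**Figure D2:**
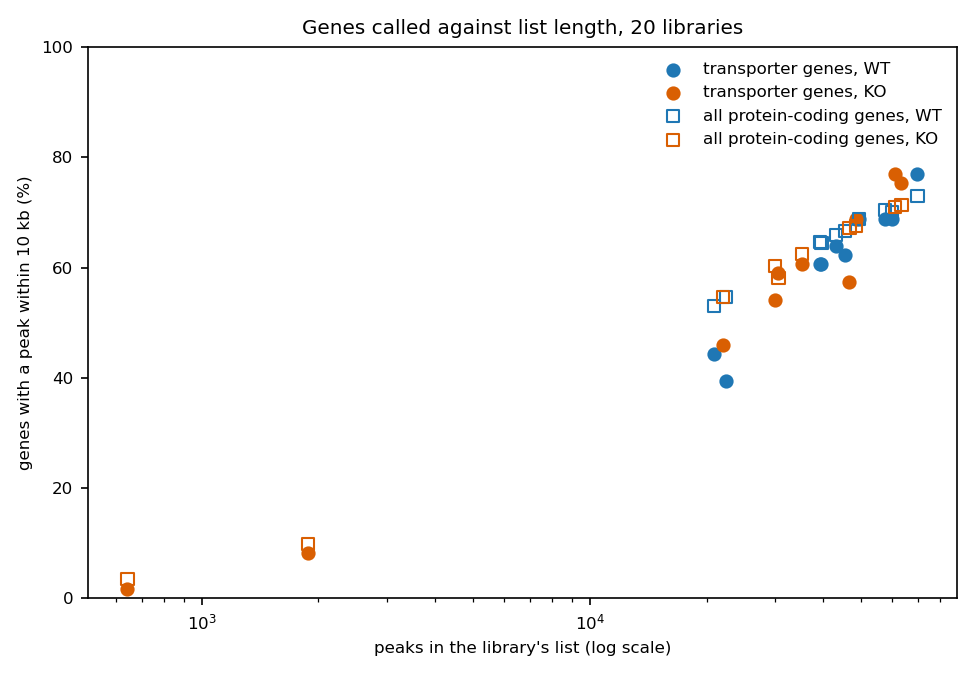
Percent of genes with a peak within 10 kb (vertical axis) against the number of peaks in the list (horizontal axis, log scale), 1 filled circle per library for the 61 transporter genes and 1 open square for all 21631 genes, WT in blue and KO in orange. Both shares rise with list length, and the KO line 1 libraries at D5 sit at the lower left with 1.64% and 8.20% of transporter genes called.

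Methionine restriction was compared with control medium in 14 libraries at D1 and D5. No transporter gene passed the threshold, an adjusted p of 0.05 in an exact permutation test that permuted the medium within genotype and day, with Benjamini-Hochberg adjustment over all genes. The design gave 0 genes among all 198 with testable calls (0% in either direction), 0 of 9787 by gene rank (0%) and 0 of 2611 testable regions (0%). At an unadjusted p under 0.05 there were 11 genes by calls, among them the betaine carrier Slc6a12, 1799 genes by rank, among them 5 of 21 transporter genes, and 266 regions, 2 of 7 near transporter genes. Slc6a12 was called in 5 of 7 MR and 0 of 7 CTL libraries (adjusted p of 0.608 in the permutation test). Its MR peaks were weak, with list percentiles of 0.0379 to 29.3. Those at D5 lay at chr6:121338215-121338419, which is also in the window of its neighbour Slc6a13. The smallest p this design can give is 0.00463. The median rank difference, MR minus CTL, was 2.43 percentile points for the 21 transporter genes, of which 12 were higher in MR, and 0.278 for all 9787 genes, of which 5037 were higher.

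Slc6a9, a glycine transporter and known Atf4 target, had the largest difference in gene rank. Its ranks in WT D1 were 30.6 and 22.3 in CTL and 44.6 and 43.9 in MR. In WT D5 they were 3.58 and 7.03 in CTL and 21.4 and 31.8 in MR. In KO D1, line 1 had 29.2 in CTL and 25.4 in MR, line 2 had 13.3 and 82.8, and at D5 line 2 had 18.7 and 39.4. The media did not overlap in WT at either day, while KO line 1 at D1 ran the other way. The mean difference was 23.2 points, with an adjusted p of 0.139 (exact permutation test, Benjamini-Hochberg), and 3.71 points within 50 kb. The window of Slc6a9 also holds B4galt2 and Ccdc24.

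Slc38a10 was higher in MR in all 4 combinations of genotype and day. In WT it ranked 49.7 and 51.9 in D1 CTL and 78.6 and 76.7 in D1 MR, then 42.5 and 39.3 in D5 CTL and 84.6 and 88.2 in D5 MR. In KO D1 it ranked 83.2 and 54.8 in CTL and 88.8 and 77.5 in MR, and KO D5 line 2 ranked 89.1 and 93.9. The CTL ranks of WT all lay below its MR ranks, while the KO media overlapped at D1. The mean difference of 22.8 points had an adjusted p of 0.139 in the exact permutation test. The window of Slc38a10 also holds Ndufaf8 and Tepsin. The difference was 13.3 points with peaks within 2 kb of the gene span, 11.2 within 1 kb of a gene end and 3.90 within 50 kb.

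Slc6a7 was 18.4 points higher in MR, with an adjusted p of 0.116 in the exact permutation test, and its media did not overlap in any of the 4 combinations, of which KO at D5 holds 1 library per medium. Within 50 kb the difference was 7.79 points, with an adjusted p of 0.751 in the permutation test. Lower in MR by the largest amounts were the taurine transporter Slc6a6 with -16.5 points, Slc7a1 with -15.3 and Slc7a2 with -12.4, none past the threshold in the permutation test. Their signs were negative in WT at both days and in KO at D5. In KO at D1 Slc6a6 and Slc7a1 differed by 4.63 and 2.36 points, with overlapping media. Within 50 kb in place of 10 kb, the differences of Slc6a6 and Slc7a1 became 8.68 and 5.49. The other 4 of the 10 largest differences were 9.34 points for Slc6a5, -8.59 for the neutral amino acid carrier Slc43a2, -7.56 for Slc38a6 and -6.90 for Slc3a2, with adjusted p of 0.352 to 0.696 in the permutation test.

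**Figure D3:**
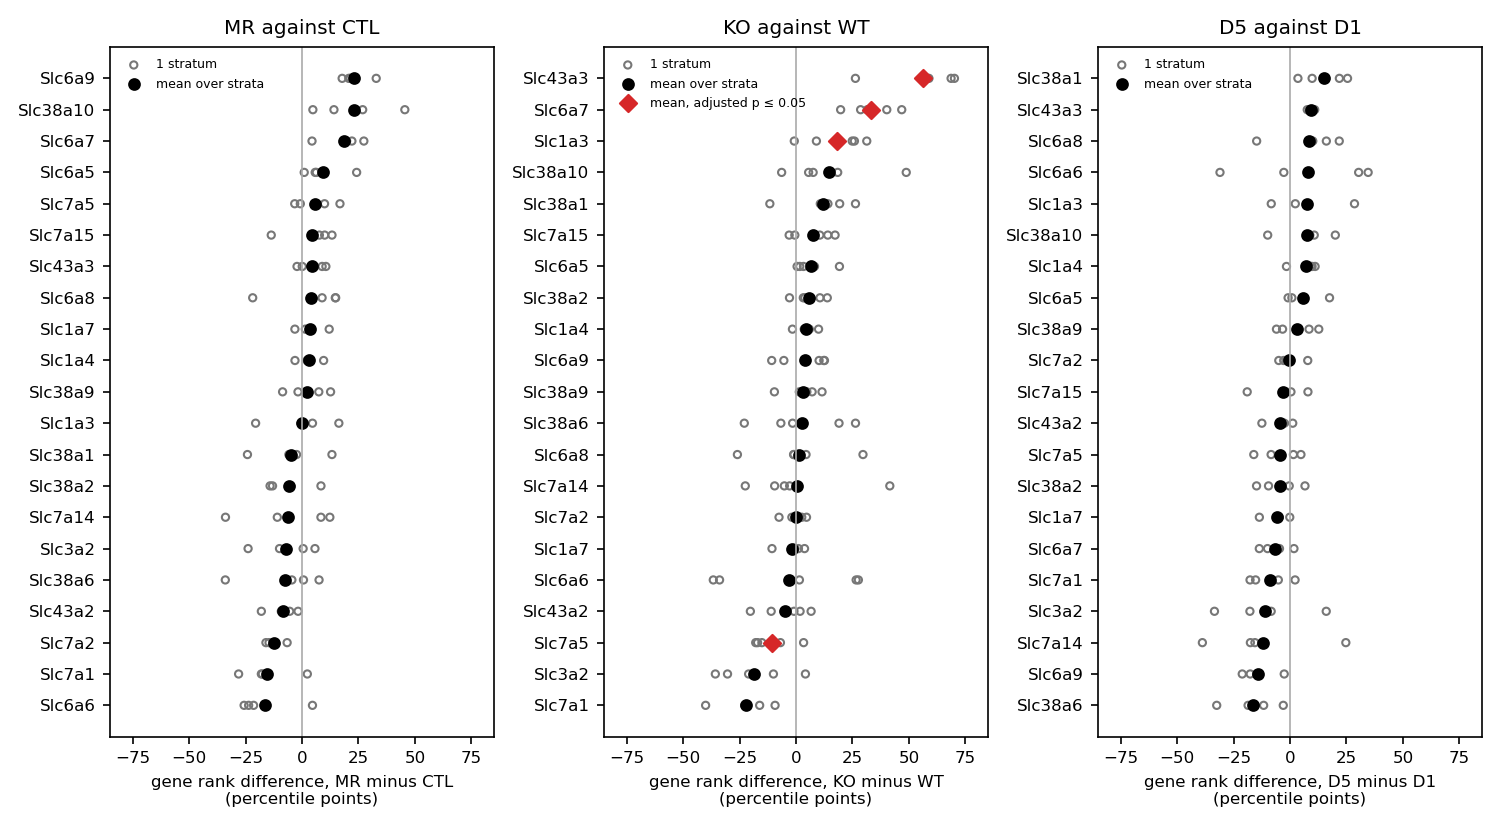
Gene rank differences of the 21 transporter genes called in every library, in percentile points (horizontal axis), for MR minus CTL, KO minus WT and D5 minus D1. Open circles are single combinations of the other 2 factors, black dots their mean, and red diamonds means with an adjusted p at or under 0.05. Only the KO panel has red diamonds: Slc43a3, Slc6a7 and Slc1a3 to the right and Slc7a5 to the left.

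Calls in both MR libraries and neither CTL library were counted without a test, since 2 libraries against 2 cannot give an exact p under 0.333. In WT at D1 these were Slc7a11, the light chain of the cystine-glutamate exchanger, and Slc7a8, a light chain for neutral amino acids, 2 of 61 genes against 1.76% of all genes. The WT MR lists at D1 held 69881 and 57676 peaks and the CTL lists 60173 and 45545. In WT at D5 they were Slc36a3, Slc38a4, Slc6a12, Slc6a18, Slc6a19, Slc7a4, Slc7a6 and Slc7a7, 8 of 61 genes against 6.91% of all genes. There the MR lists were the longer ones, with 39538 and 39263 peaks against 22465 and 20847. With 20000 peaks per list, 3 of these 8 stayed separated at D5: the neutral amino acid carrier Slc38a4 and the neighbours Slc6a18 and Slc6a19, known as neutral amino acid carriers of kidney and gut. That was against 1.59% of all genes. At D1 the 2 genes called in MR alone were then Slc38a4 and Slc7a15, against 2.01%. In KO at D1 0 genes were called in both MR and neither CTL library or the reverse, against 0.0324% and 1.01% of all genes.

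Slc7a11 (chr3:50364936-50499087) is the textbook Atf4 target among these genes. Its promoter region, chr3:50443532-50443814, overlaps the window printed above with its 2 inverted C/EBP-ATF matches. A peak was called there in WT D1 MR replicate 1 (list percentile 36.2), WT D1 MR replicate 2 (11.98), KO D1 MR line 1 (41.0) and KO D0 line 1 (6.57). None of the 4 D1 CTL libraries had it, nor had any library at D5. Of the 4 libraries with a peak, 3 were thus D1 MR. Over its whole window Slc7a11 was called in 3 of 7 libraries in MR and 1 of 7 in CTL. The mean difference in the share called was 0.125. The CTL call was in KO D5 CTL line 2, at chr3:50438265-50438370, outside the promoter region. The exact permutation test cannot decide on this difference, because no arrangement of the calls of Slc7a11 could reach the threshold.

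Among the 9 transporter genes known as Atf4 targets, 6 were called in all 18 libraries (Slc7a5, Slc3a2, Slc7a1, Slc6a9, Slc38a2 and Slc1a4), Slc1a5 in 11, Slc7a11 in 5 and Slc7a3 in 0. By calls, 0 of the 9 could be tested for MR. None of the 6 passed the rank test for MR, and their median difference was -1.53 points against 0.278 for all genes. At an unadjusted p under 0.05 were 2 of them, Slc6a9 and Slc7a1, with opposite signs. Of the 12 carriers of methionine, 5 were called throughout (Slc7a5, Slc3a2, Slc43a2, Slc38a1 and Slc38a2), with a median difference of -5.94 points, none past the threshold and 0 at an unadjusted p under 0.05. Slc43a1 was called in 17 libraries, Slc7a7 in 13, Slc7a6 and Slc6a19 in 10, Slc6a15 in 8, Slc7a8 in 3 and Slc6a14 in 0. Slc7a5, the main methionine exchanger subunit, had mean ranks of 81.4 in MR and 74.5 in CTL, an adjusted difference of 5.70 points with an adjusted p of 0.316 in the permutation test. For 19 genes of amino acid sensing, among them Mtor, Rptor and Eif2ak4, the median difference was 0.175 points. Of these 19, 0 were past the threshold and 3 at an unadjusted p under 0.05. Of all 9787 ranked genes 1799 were at an unadjusted p under 0.05.

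Loss of Setd2 was compared with WT in 18 libraries, permuting genotype within day and medium. By gene rank, 3 of the 21 transporter genes rose in KO and 1 fell, against 9.54% and 9.18% of 9574 genes tested. The 4 genes were Slc43a3, Slc6a7 and Slc1a3, which rose, and Slc7a5, which fell. The median difference, KO minus WT, was 3.07 points over the 21 genes, of which 14 were higher, and 0.714 over all genes, of which 5019 were higher. By calls, 2 of 10 testable transporter genes were called more often in KO, the noradrenaline transporter Slc6a2 and the neutral amino acid carrier Slc6a15. Of all testable genes 6.87% were called more often and 6.03% less often. Libraries of 1 KO line are not independent of each other, and the tests treat them as if they were.

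Slc43a3 (chr2:84936545-84958509) changed most among the 21. Over the 10 WT libraries its gene rank was 12.4 at the lowest, 18.8 at the median and 33.5 at the highest. Over the 8 KO libraries these values were 34.3, 79.2 and 94.5, so no WT library reached the lowest KO library. In D0, KO line 1 had 34.3 and line 2 71.2, against 21.0 and 32.0 in WT. In D1 MR the KO lines had 89.0 and 81.0, against 12.4 and 17.4 in WT. The mean difference was 56.3 points, with a Benjamini-Hochberg adjusted p of 0.0114 in the exact permutation test, and it was 42.3 points within 2 kb and 57.1 points within 50 kb of the span.

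Of the 3 Slc43a3 regions, 1 lies at an end of the gene and 1 beyond the other end, and both were called in nearly all libraries. The region at its lower-coordinate end, chr2:84936480-84936811, had list percentiles of 85.3 to 95.3 in KO and 45.8 to 82.1 in WT. The region at chr2:84961404-84961696 lies outside the span, with its midpoint 3041 bases from the other end. It had list percentiles of 77.7 to 98.2 in KO and 26.7 to 79.4 in the 9 WT libraries with a peak. No other protein-coding gene lies in the window. The median over all 743 ranked genes of chromosome 2 was 1.23 points in line 1 and 0.645 in line 2, against 46.5 and 59.5 points for Slc43a3.

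Slc1a3 (chr15:8634124-8710807), a glutamate and aspartate transporter, ranked 32.1 to 68.2 in WT with a median of 47.5 and 50.5 to 78.3 in KO with a median of 68.4. KO stood above WT in D0, D1 CTL and D5 MR, while the genotypes overlapped in D1 MR and KO D5 CTL line 2, with 67.1, lay just below both WT libraries, with 68.2 and 67.5. The mean difference of 18.1 points had an adjusted p of 0.0324 in the exact permutation test. Ranked within chromosome 15, it was 9.90 points with an adjusted p of 0.175. The median over the 489 ranked genes of chromosome 15 was 2.97 points in line 1 and 5.91 in line 2.

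Slc6a7 ranked 11.2 to 61.9 in WT with a median of 31.4 and 46.2 to 84.7 in KO with a median of 73.2. Within each day and medium every KO library stood above both WT libraries. The mean difference was 33.4 points, with an adjusted p of 0.0114 in the exact permutation test. The window also holds Camk2a and Cdx1, and with peaks within 2 kb of the span the difference was 14.1 points with an adjusted p of 0.180.

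Slc7a5 (chr8:121881146-121907686) fell by 10.7 points in KO, with an adjusted p of 0.0411 in the exact permutation test. It ranked 67.3 to 87.0 in WT with a median of 84.7 and 53.1 to 78.2 in KO with a median of 71.5. KO stood below WT at D1 in both media and in D5 MR, the genotypes overlapped in D0, and in D5 CTL the KO library, with 72.6, stood above both WT libraries. Ranked by the deposited fold enrichment, the difference was -6.08 points with an adjusted p of 0.432. Ranked within chromosome 8 it was -11.4 points with an adjusted p of 0.0861. Of its 13 regions, chr8:121898151-121898976 and chr8:121901851-121902432 lie inside the gene and were called in all 18 libraries. Its partner Slc3a2 differed by -18.6 points with an adjusted p of 0.0762, and the cationic transporter Slc7a1 by -22.0 points with an adjusted p of 0.0543. Neither passed the threshold of the permutation test. Nor did Slc38a10 (14.8 points), Slc38a1 (11.8), Slc7a15 (7.67) and Slc6a5 (6.57), with adjusted p of 0.0646 to 0.184. Within 50 kb the difference of Slc7a1 became 9.67 and that of Slc38a10 -2.01.

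**Figure D4:**
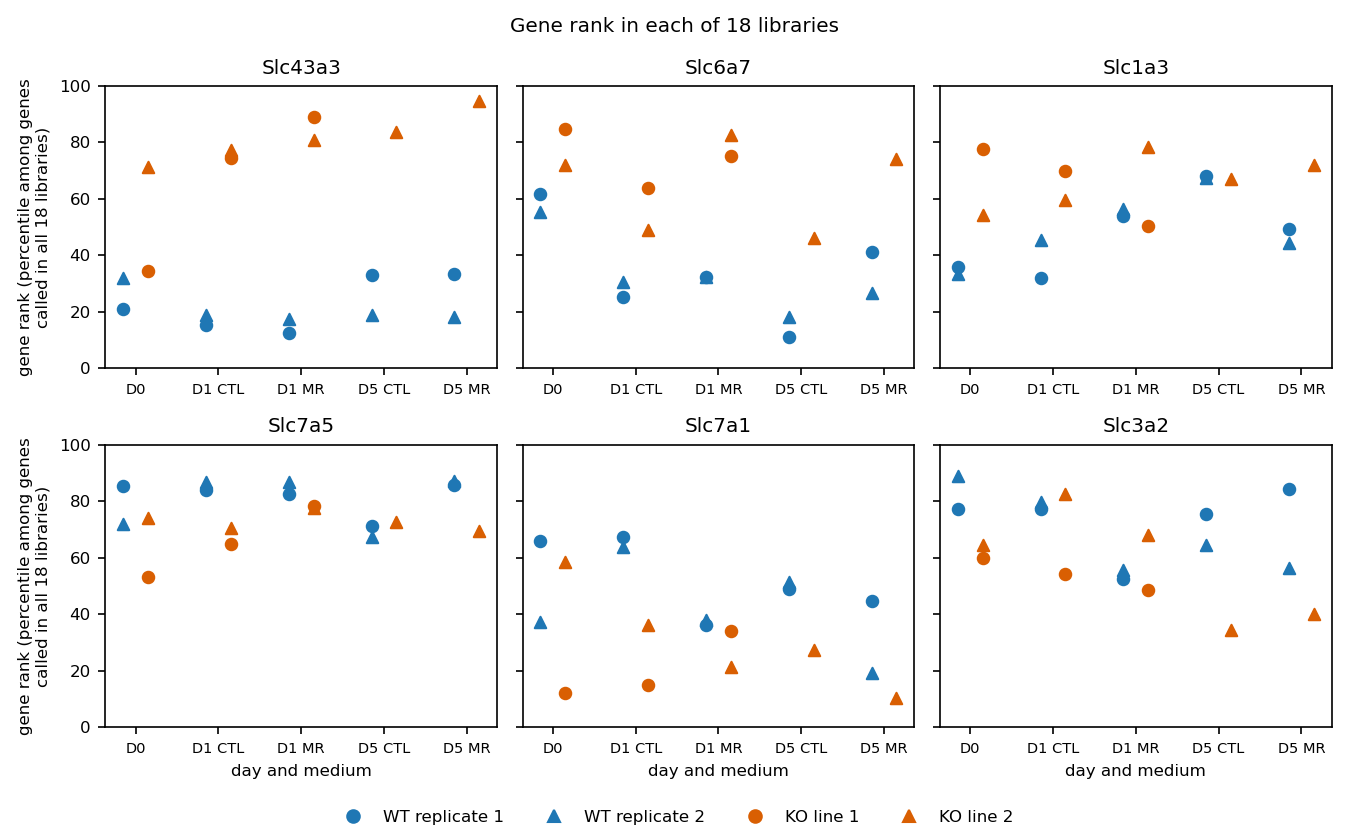
Gene rank (vertical axis, percentile among 9574 genes) of 6 transporter genes in each of 18 libraries, by day and medium (horizontal axis), WT in blue and KO in orange, circles for replicate or line 1 and triangles for replicate or line 2. The orange points of Slc43a3 all lie above the highest blue point of 33.5, and those of Slc7a5 lie lower than blue at D1 and in D5 MR.

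Slc6a2 (chr8:92960470-93001667) was called in 7 of 8 KO libraries and in 0 of 10 WT libraries. Its list percentiles in line 1 were 79.7 in D0, 92.2 in D1 CTL and 84.2 in D1 MR. In line 2 they were 32.4 in D1 CTL, 12.1 in D1 MR, 4.37 in D5 CTL and 23.8 in D5 MR, with no peak in D0. The mean difference in the share called was 0.9, with an adjusted p of 0.0256 in the exact permutation test. Line 1 was thus high and line 2 low. With 20000 peaks per list the difference was 0.5, with an adjusted p of 0.106. Slc6a15 (chr10:103367808-103419379) was called in 7 of 8 KO libraries and 1 of 10 WT libraries, at 1 region, chr10:103369166-103369369, inside the gene. Its list percentiles were 68.9, 84.4 and 76.9 in line 1 and 23.4, 49.6, 44.8 and 49.2 in line 2, against 24.8 in WT D1 MR replicate 2. The difference of 0.7 had an adjusted p of 0.0376 in the same permutation test. Over the alternatives run, the difference of Slc6a15 lay between 0.5 and 0.833. It stayed past the threshold in 4 of 11 alternatives, and that of Slc6a2 in 6 of 12.

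Regions called in all 3 D0 and D1 libraries of KO line 1 and in none of the other 9 libraries at those days numbered 15 of 299 near transporter genes, against 2% of regions near any gene. Of these, 7 lay near Slc6a2, 3 near Slc1a3 and 1 each near Slc1a6, Slc38a6, Slc43a1 and Slc7a5, and 1 lay in the shared window of Slc6a18 and Slc6a19. The same count for line 2 was 0 of 299, against 0.0949%. The Slc6a2 regions spread over the gene, from chr8:92963933-92964183 to chr8:92996973-92997124. The lists of line 1 at D0 and D1 held 48460 to 63530 peaks and those of line 2 30629 to 46664, and the part of list length in this count was not tested.

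**Figure D5:**
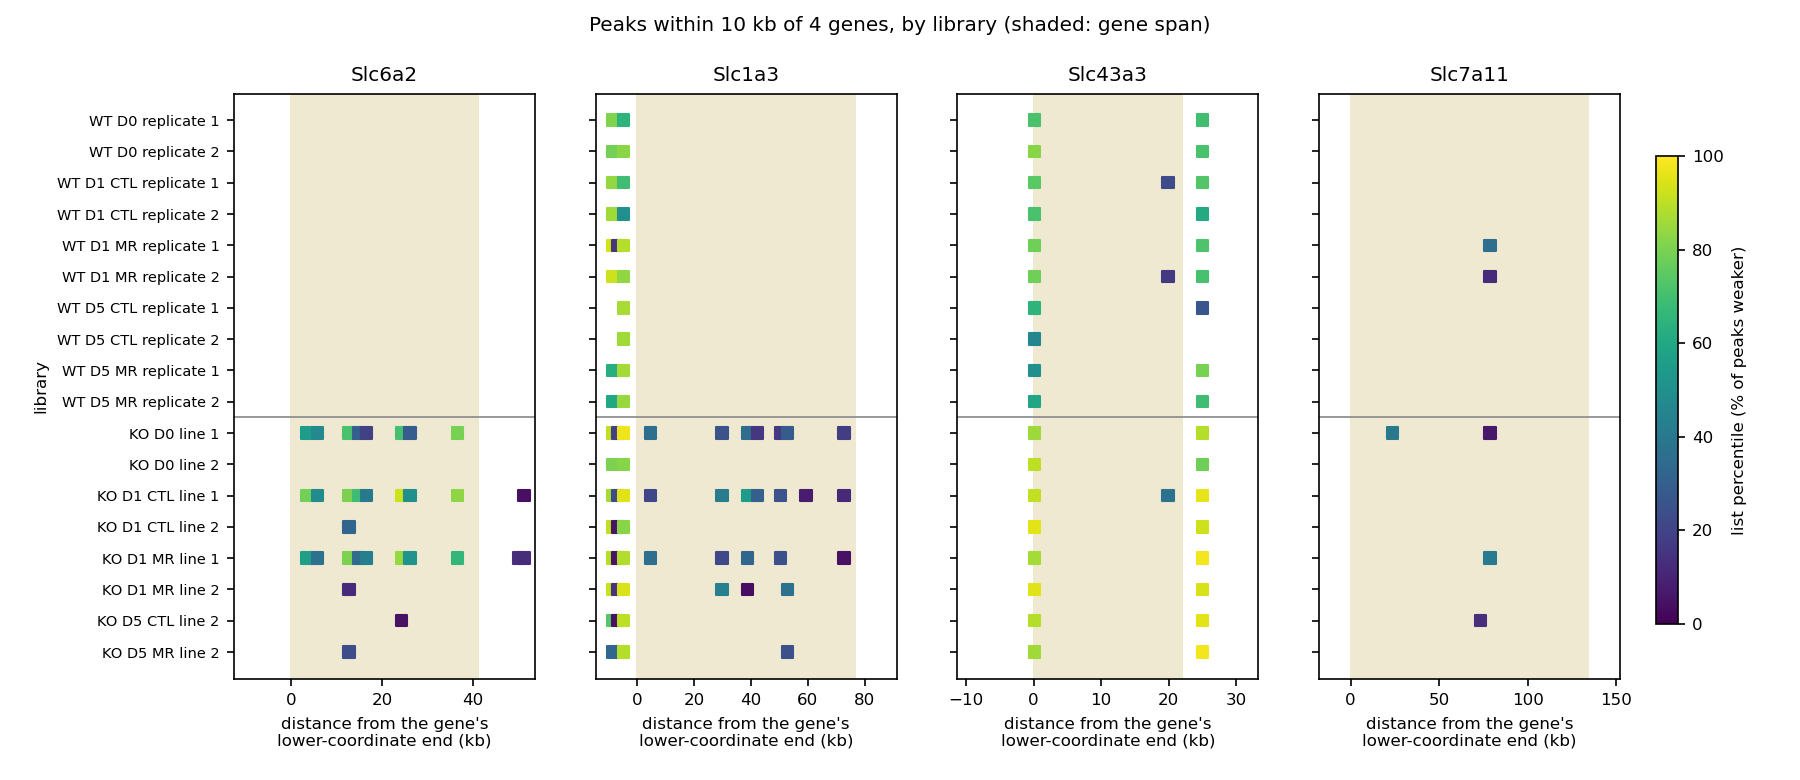
Peaks within 10 kb of Slc6a2, Slc1a3, Slc43a3 and Slc7a11 in 18 libraries (rows, WT above and KO below the line), by distance from the gene's lower-coordinate end in kb (horizontal axis), with the gene span shaded and colour giving the list percentile. Slc6a2 has no peak in WT and rows of peaks in KO line 1. Slc43a3 has brighter squares in KO at its lower-coordinate end and beyond its other end.

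Among single regions, 7 of 50 testable ones near transporter genes changed with genotype, 2 gained in KO and 5 lost, against 4.63% and 6.86% of 19646 testable regions. The 2 gained regions were that of Slc6a15 and chr8:92972928-92973479 in Slc6a2, called in 6 of 8 KO and 0 of 10 WT libraries. Lost was chr6:121325818-121326039 in Slc6a13, a GABA and taurine carrier of liver and kidney, called in 1 of 8 KO and 10 of 10 WT libraries, with an adjusted p of 0.0327. Lost too was chr15:97015316-97015516 in Slc38a4, an imprinted neutral amino acid carrier, called in 0 of 8 KO and 8 of 10 WT libraries, with the same adjusted p. The other 3 were chr13:112661218-112661361 in the lysosomal arginine sensor Slc38a9, with 0 of 8 and 7 of 10 libraries, chr12:8519581-8519746 near Slc7a15, also with 0 of 8 and 7 of 10, and chr6:91683188-91683371 beside Slc6a6, with 2 of 8 and 10 of 10. Their adjusted p was 0.0403 in the exact permutation test. Slc38a9, Slc7a15 and Slc6a6 had other regions and were called as genes in 18 of 18 libraries, and Slc38a4 in 16 of 18.

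The WT list percentiles of the lost Slc6a13 region were 35.6 and 39.96 in D0, 68.7 and 66.4 in D1 CTL, 73.9 and 71.4 in D1 MR, 28.1 and 51.3 in D5 CTL, and 78.0 and 80.7 in D5 MR. The only KO library with a peak there was D1 CTL line 1, at 1.76. As a gene, Slc6a13 was called in 3 of 8 KO and 10 of 10 WT libraries, with an adjusted p of 0.0509 in the permutation test. Slc7a12 was called in 5 of 8 KO and 0 of 10 WT libraries, with the same adjusted p.

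Called in both KO and neither WT library were Slc6a15 in D0 (0.786% of all genes), Slc6a15 and Slc6a2 in D1 CTL (1.58%), and Slc6a2 and Slc7a12 in D1 MR (0.453%). The reverse held for Slc3a1 and Slc6a16 in D1 CTL (1.18%) and for Slc3a1, Slc6a13, Slc7a6 and Slc7a8 in D1 MR (3.75%). With 20000 peaks per list, 1 of these separations, that of Slc6a13 in D1 MR, was still there. Called in KO alone were then Slc36a1 and Slc38a3 in D0 (1.67% of all genes), Slc7a15 in D1 CTL (1.89%), and Slc38a3 and Slc6a15 in D1 MR (1.85%). Called in WT alone were Slc38a4 in D0 (1.26%), Slc6a13 and Slc7a7 in D1 CTL (1.83%) and Slc6a13 in D1 MR (2.49%). Slc3a1 is the heavy chain of the cystine carrier of kidney. It was called in all 4 WT libraries at D1, with list percentiles of 55.6 and 34.4 in CTL and 43.4 and 37.9 in MR, and in 0 of the other 14.

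Muscle markers moved with genotype beside these results. Myog, a regulator of muscle differentiation, was called in 1 of 8 KO and 10 of 10 WT libraries (adjusted p of 0.0256 in the exact permutation test), and the mean gene ranks of Cdh15 and Myod1 were 84.4 and 19.2 in WT and 51.9 and 4.58 in KO (adjusted p of 0.0114 and 0.0392 in the same test). Of the 4 differentiation markers, 0 to 3 were called per KO library and 3 or 4 per WT library. Of the 4 myoblast markers, 3 or 4 were called in each library of either genotype. Of the other cell types' markers, each library had 0 or 1 of 2 leukocyte, 1 of 2 epithelial and 1 or 2 of 2 endothelial markers, and 1 to 3 of 3 glial or neuronal ones in WT and 2 or 3 in KO. Cdh1, an epithelial cadherin, fell by 24.8 points in KO (adjusted p of 0.0349 in the permutation test). Their part in the transporter results was not tested. The median KO difference of the 5 methionine carriers was -4.72 points and that of the 6 Atf4 targets -3.45, with Slc7a5 the 1 gene past the threshold in each. The 19 sensing genes had a median of 8.43 points, and 1 of them rose and 1 fell past the threshold. Sesn2, a leucine sensor, rose by 20.7 points and Flcn, a regulator of the lysosomal Rag GTPases, fell by 22.7 points. Their adjusted p were 0.0216 and 0.0265 in the permutation test. Of all 9574 genes 9.54% rose and 9.18% fell past the same threshold, so these lists do not stand out by their counts.

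The 4 rank calls and the 2 gene calls changed with the libraries included. Without WT replicate 1 or without WT replicate 2, 0 transporter genes passed by rank or by calls, and 0 regions (0 of all genes and regions in each), with a smallest possible p of 0.00926. Without KO line 2, 0 passed by rank (0 of all genes), 4 by calls (379) and 23 regions (5767). Without KO line 1, 4 passed by rank (2599), 1 by calls (372) and 6 regions (3279). Without the D5 libraries 0 passed by rank (0 of all genes) or by calls (127) and 3 regions did (1347). With the 2 short lists of KO line 1 added back, 0 passed by rank (38) or by calls (104) and 8 regions did (3513). The difference of Slc43a3 was between 39.8 and 62.7 points, and that of Slc7a5 between -16.7 and -6.08, in every alternative run.

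D5 was compared with D1 in 14 libraries, permuting the day within genotype and medium. By calls 0 of 1217 testable genes passed (0% in either direction), although 648 had an unadjusted p under 0.05. Among the 8 testable transporter genes these were Slc1a5 and Slc36a3, with a difference of -0.75 in the share called, and Slc6a21 and Slc6a4, with -0.625, at adjusted p of 0.0664 to 0.0747 in the exact permutation test. By gene rank 0 of 21 transporter genes passed, against 2.92% of genes higher and 3.26% lower. An unadjusted p under 0.05 was reached by 1 of the 21, against 2513 of all 9787 genes. That 1 gene was Slc43a3, 9.12 points higher at D5, with an adjusted p of 0.0640 in the permutation test. The median difference was -3.13 points, with 9 of 21 higher, against 0.407 for all genes. Of the 19 sensing genes, Lamtor2 differed by 24.9 points and Rptor by -18.4, each with an adjusted p of 0.0499 in the permutation test. By regions 0 of 14311 passed (0%), with 7166 at an unadjusted p under 0.05, 27 of them among the 47 near transporter genes. Regions in Slc38a2, chr15:96697017-96697162, and in Slc6a17, chr3:107477878-107478052, had a peak in 8 of 8 libraries of D1 and 0 of 6 of D5, with an adjusted p of 0.0724 in the permutation test. The lists of these 14 libraries held 35201 to 69881 peaks at D1 and 20847 to 39538 at D5. The part of list length in the calls was not tested. Without the KO line 1 libraries, 9 regions near transporter genes passed, all called less often at D5 (3512 of all regions). Pairing the KO libraries by line drops line 1, which has no D5 library in the tests, and so is the same fit.

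In WT CTL, 9 of 61 genes were called in both D1 and neither D5 library, against 10.1% of all genes: Slc1a5, a glutamine carrier, Slc36a3, Slc36a4, Slc38a4, Slc3a1, Slc6a16, Slc6a21, Slc7a4 and Slc7a7. In WT MR these were Slc3a1, Slc6a21, Slc6a4, Slc7a11 and Slc7a8 (4.57% of genes), and Slc6a18 was called at D5 alone (0.134%). The WT CTL lists held 60173 and 45545 peaks at D1 and 22465 and 20847 at D5. With 20000 peaks per list, 1 of 61 genes, Slc7a7, was called at D1 alone in WT CTL (2.29% of all genes) and 2, Slc36a2 and Slc7a15, at D5 alone (3.15%). In WT MR 0 were then called at D1 alone (2.07%) and 3, Slc36a2, Slc6a18 and Slc6a19, at D5 alone (1.66%). Between D0 and D1 CTL in WT, Slc3a1 was called at D1 alone (0.929% of genes), and with 20000 peaks per list it was not among the separated genes.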

How the data were processed

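ATAC-seq was made in C2C12 cells with a commercial kit, 10 PCR cycles and paired-end sequencing, per the labels' protocols. The authors deposited 1 broadPeak list per library, with a score, a fold enrichment (ratio), a −log10 p-value and a −log10 q-value per peak. These are the authors' own values, used only to rank or filter peaks within a list. The build is GRCm38, per the submitters' processing notes. The aligner, filters, handling of duplicates, transposase shift and peak caller are not given in the sources used here, and reads per library were not used. The lowest deposited −log10 q-value was 1.00.

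Genes came from a RefSeq table of GRCm38.p6, and 787806 peaks were merged into 101352 regions where they shared 1 bp. The exact two-sided permutation tests permuted labels within strata, in 432 ways for MR, 1944 for KO and 324 for D5, and took the mean difference over strata. Benjamini-Hochberg adjustment covered all genes ranked, or all genes or regions whose calls allow a p of 0.05. The scripts, in Python 3.11.15 with numpy 2.4.6 and pandas 2.3.3, were checked on data made with known answers. Named with values are genes past a test, genes separated between 2 libraries and 2, the 10 with the largest rank difference for MR and for KO, and the methionine and Atf4 lists. Values of 1 gene, which stays in the counts, are not reported here. The genes and lists were chosen with earlier results of these data known. The labels state no pairing of WT replicates. Deviations of same-numbered WT libraries correlated between -0.0489 and 0.0969 over 9574 genes, which cannot show whether they were made together. KO libraries of 1 line deviated together, with correlations of 0.343 to 0.504. Alternatives were list length, q threshold, window, overlap, ranking value, chromosome, libraries left out and a replicate block.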

Additional observations from a re-analysis of the deposited data

How the results depend on the processing

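No transporter gene or region passed for MR under any alternative run, the replicate block (0 by calls, rank and regions) included. In the main run 0 of all genes and regions passed as well, so these zeros are not particular to transporter genes. The block and the runs without single replicates leave fewer arrangements, and so coarser p-values, than the main run. For KO against WT the calls moved from 2 transporter genes (216 of all genes) to 0 with all 20 libraries (104), 0 without D5 or without the KO D5 libraries (127), 0 at a −log10 q-value of at least 5 (0 of all genes) and 0 within 1 kb of a gene end (52), to 1 with 20000 peaks per list (310), and to between 0 and 4 without single replicates (0 to 379), and stayed at 2 within 50 kb (331). The rank count moved from 4 (1792) to 0 with all 20 libraries (38), 0 without D5 or KO D5 (0), 2 at q of at least 5 (836), 1 within 1 kb (772), 2 within 2 kb (1439) and 7 within 50 kb (2615), and lay between 0 and 4 without single replicates (0 to 2599). The region count moved from 7 (2257) to 3 without D5 or KO D5 (1347) and 0 at q of at least 5 (416). It was 8 with all 20 libraries (3513) and lay between 0 and 23 without single replicates (0 to 5767). For KO against WT, leaving out all D5 libraries and leaving out those of KO are the same fit.

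For D5 against D1 the calls moved from 0 to 7 with all 20 libraries (1145 of all genes), all 7 lower at D5, where the lists of KO line 1 hold 644 and 1881 peaks. They stayed at 0 with the replicate block (45 of all genes) and without KO line 1 (265). The rank count of 0 (605) became 1 with 20000 peaks per list (486), 1 by fold (670) and 3 within 50 kb (874), and stayed at 0 with all 20 libraries (16 of all genes) and with the block, within 1 or 2 kb, within chromosomes or without single replicates (0 of all genes in each). The region count of 0 became 34 with all 20 libraries (10687), 2 with the replicate block (603), 9 with the block in KO alone (3512) and 0 to 9 without single replicates (0 to 3512). The block in KO alone was added after seeing the data and is the same fit as leaving out KO line 1. The number of genes separated by MR in either direction, with the share of all genes, was 2 (1.90%) in WT at D1 and 1 within 50 kb (1.32%). In WT at D5 it was 8 (6.97%), 3 with 20000 peaks (3.70%), 3 within 1 kb (6.07%) and 1 within 50 kb (5.03%). In KO at D1 it was 0 (1.04%), 1 at q of at least 5 (1.19%), 1 within 1 kb (1.502%) and 2 within 2 kb (1.32%). Separated in any comparison were 20 (16.5%), 12 with 20000 peaks (14.8%), 11 within 1 kb (15.5%) and 9 within 50 kb (11.5%), of which 8, 5 and 4 were among the 20.

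Of single genes, the MR differences of Slc6a6 (8.68) and Slc7a1 (5.49) changed sign within 50 kb. So did the KO differences of Slc7a1 (9.67) and Slc38a10 (-2.01 within 50 kb, -2.16 within 2 kb and -3.35 within 1 kb), and that of Slc7a15, between -1.54 and 12.5 without single replicates. The causes were not tested. MR without D5, and D5 against D1 without the KO D5 libraries or without KO line 2, allow no p of 0.05 and were not run. Peak midpoints in place of overlap cannot change region calls, by construction. The main limits are 2 libraries per group, 2 KO lines, exact p-values that are coarse in these designs, and lists of unequal length.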
